A study of Homo sapiens with 4 samples.

Results

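Osteoblasts steer the formation of osteoclasts, the cells that resorb bone, through a small set of secreted and membrane proteins. RANKL (gene TNFSF11) binds its receptor RANK (TNFRSF11A) on osteoclast precursors and drives them to become osteoclasts, and osteoprotegerin (OPG, gene TNFRSF11B) is a soluble decoy receptor that binds RANKL and keeps it from RANK. The level of RANKL set against that of OPG is therefore commonly read as a balance between bone resorption and its restraint. The cytokines CSF1 and IL34, which share the receptor CSF1R, keep precursors of the macrophage and osteoclast lineage alive and dividing. These 5 genes were picked out of the deposited mRNA table by symbol, out of 19610 gene symbols, and they cover 22 of its 79798 transcripts.

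The study followed hFOB1.19 cells, a human fetal osteoblast line immortalized with a temperature-sensitive large T antigen. The control library was collected on differentiation day 0, from cells growing at the permissive temperature. The other 3 libraries were collected on days 3, 6 and 9 of mineralization at a raised temperature, in the same medium with serum. All libraries come from 1 cell line, the labels name no drug or genetic change, and the rise in temperature and the time in culture cannot be told apart.

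Each day is represented by 1 library, so differences between days have no replicate check and no test was made. The deposited values were FPKM for each transcript, a fragment count divided by transcript length and library size, which can be compared between genes. They were summed over the transcripts of each gene, and the sums over all genes ran from 538072 on day 3 to 617857 on day 0. No read counts came with them, so the depth behind a single gene is unknown and no interval is given. Ratios to day 0 were formed on the log2 scale from FPKM plus 1, so that changes of low genes are understated. A gene was called 2-fold higher or lower when its FPKM reached 1 in any library and this log2 ratio was at least 1 or at most -1. Of the 19610 genes, 12859 reached that minimum, and so did 4 of the 5 members, all but TNFSF11. A gene under 1 FPKM on day 0 could reach the minimum only in a later library. With 1 added, such a gene could not be called 2-fold lower, which holds for the members, the lists and the background. The 3 comparisons share the day 0 library, so they are not independent of each other. These are bulk RNA values, in which fewer cells of a type and less RNA per cell cannot be told apart.

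The decoy receptor and CSF1 stood well above day 0 on each later day, while RANKL stayed far under 1 FPKM in every library. TNFRSF11B and CSF1 were 2-fold higher than day 0 on all 3 later days, and IL34 was 2-fold higher on day 6 alone, a call that depended on the settings. In the background, 5.93% of the 12859 genes were 2-fold higher on all 3 days. On single days, 8.13% of genes were 2-fold higher on day 3, 9.01% on day 6 and 9.6% on day 9. No member was called 2-fold lower on any day, against 5.3%, 6.42% and 6.52% of all genes. For most members this was close to fixed by the rule. TNFSF11 and IL34, under 1 FPKM on day 0, could not be called lower. TNFRSF11A, at 1.19 FPKM on day 0, could be called only near the floor. Without the added 1, its day 6 FPKM was 0.474 of the day 0 value.

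**Figure D1:**
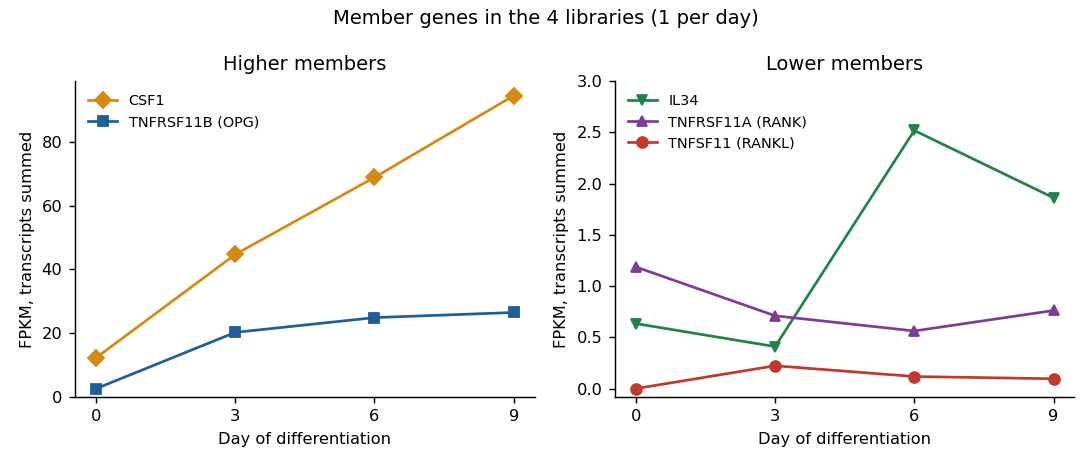
FPKM summed over transcripts (y axis) of the 5 genes in the libraries of days 0, 3, 6 and 9 (x axis), with 1 point per library and no error bars because each day has 1 library. CSF1 and TNFRSF11B, on the left, were lowest on day 0 and highest on day 9, and on the right TNFSF11 lay below IL34 and TNFRSF11A on every day.

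TNFSF11 (ENSG00000120659), the ligand, was listed at 0 FPKM on day 0. Later it had 0.223 FPKM (day 3), 0.118 (day 6) and 0.0959 (day 9). All of these lay far under the minimum of 1 FPKM, and between 14259 genes (day 3) and 16365 genes (day 0) had a higher value in the same library. A fold against the 0 of day 0 is left out, because in a table without counts a 0 can be a failed estimate. On day 0, 3245 genes were listed at 0, of which 0 had at least 5 FPKM in each of the 3 other libraries and 5 had at least 1. The level of TNFSF11 was also within the range of genes that mark other cells. The 6 lymphocyte markers, among them CD3D and CD3E of the T cell receptor complex, ran from 0 to 0.522 FPKM over the libraries, and the 6 osteocyte markers from 0 to 0.653 FPKM.

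By transcript, 3 of the 5 TNFSF11 entries were listed at 0 in every library. The transcript ENST00000398795 had 0.0874, 0.118 and 0.0959 FPKM on days 3, 6 and 9. The transcript ENST00000544862 had 0.135 FPKM on day 3, under 0.001 on day 6 and 0 on day 9. The higher sum on day 3 therefore came from the second transcript, while the first differed little among the 3 later days.

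TNFRSF11B (ENSG00000164761), the decoy receptor, had 2.54 FPKM on day 0 and then 20.2, 24.9 and 26.5 FPKM on days 3, 6 and 9. The FPKM was 7.95 times the day 0 value on day 3, 9.78 times on day 6 and 10.4 times on day 9. With 1 added, the log2 ratio was 2.58, 2.87 and 2.96, and only 86 of the 12859 genes had a larger one on day 3, 84 on day 6 and 93 on day 9. Most of the difference from day 0 was present on day 3, and the log2 level on day 9 was 0.37 above that of day 3. The table lists 1 transcript for this gene, ENST00000297350, so these values do not depend on how reads were shared among transcripts. In the order of levels, TNFRSF11B was above 15.8% of the 12859 genes on day 0 and above 70.8% on day 9.

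TNFRSF11A (ENSG00000141655), the receptor RANK, which osteoclast precursors carry, had 1.19 FPKM on day 0. The later libraries held 0.71, 0.562 and 0.762 FPKM. The log2 ratio with 1 added was -0.35, -0.49 and -0.31, within the 2-fold limit, and the ratio of the FPKM themselves was 0.598, 0.474 and 0.642. The highest library was that of day 0, and the values after it lay close together. Which transcript carried the sum changed from library to library. ENST00000616710 made up 67.5% of the gene on day 0 and 45.1% on day 6 and was under 0.001 FPKM on days 3 and 9. ENST00000617039, listed at 0 for days 0 and 6, made up 39.8% on day 3 and 69.7% on day 9. ENST00000586569 was the steadiest, with 0.385, 0.288, 0.309 and 0.231 FPKM from day 0 to day 9.

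The balance of TNFSF11 to TNFRSF11B lay on the side of OPG in all 4 libraries. On day 0, TNFRSF11B was at 2.54 FPKM and TNFSF11 was listed at 0, so no ratio is given. TNFRSF11B was 90.9 times TNFSF11 on day 3, 211 times on day 6 and 276 times on day 9. The log2 ratio of TNFSF11 to TNFRSF11B was -6.51, -7.72 and -8.11 on these days, and TNFSF11 amounted to 1.1%, 0.473% and 0.362% of TNFRSF11B. With the highest transcript of each gene only, the log2 ratio was -7.85 on day 3 and -7.72 on day 6, so the order of days 3 and 6 depends on whether the second TNFSF11 transcript is counted. Both values come from the same library, so a scaling of the whole library leaves the ratio as it is. From day 3 to day 9, TNFSF11 went to 0.431 of its day 3 FPKM and TNFRSF11B to 1.31 times its own, so the larger part of the shift rested on values of TNFSF11 near 0.1 FPKM. With 1 added to each FPKM, which lets such values count for little, the log2 ratio was -1.83 on day 0 and -4.12, -4.53 and -4.65 later. On that scale most of the shift lay between day 0 and day 3, where the log2 ratio to day 0 was 2.58 for TNFRSF11B and 0.29 for TNFSF11. The change from day 0 was then -2.29 on day 3 and -2.82 on day 9. With 0.1 added it was -1.25 and -2.36, so the part reached by day 3 depends on the constant added.

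**Figure D2:**
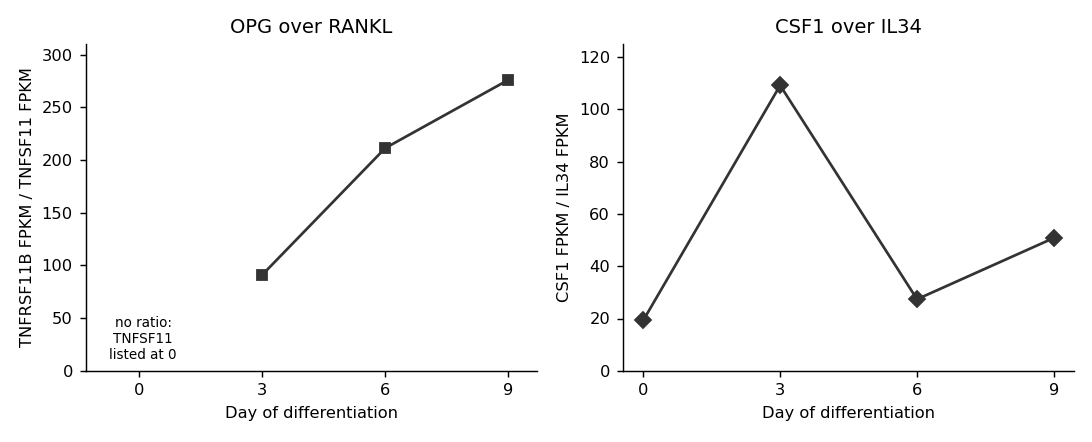
Ratio of TNFRSF11B to TNFSF11 FPKM (left) and of CSF1 to IL34 FPKM (right) on the y axes, by day on the x axes, with 1 point per library. The ratio of OPG to RANKL was 90.9, 211 and 276 on days 3, 6 and 9 and has no value on day 0, and its order on days 3 and 6 turned when only the highest transcript of each gene was used. The ratio of CSF1 to IL34 was highest on day 3, at 109.

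CSF1 (ENSG00000184371), the macrophage colony-stimulating factor, was the highest of the 5 genes in every library. From 12.2 FPKM on day 0 it went to 44.7, 68.9 and 94.6 FPKM on the 3 later days. The FPKM was 3.65, 5.63 and 7.73 times the day 0 value. The log2 ratio with 1 added was 1.79, 2.40 and 2.85, and 2.31%, 1.15% and 0.84% of the 12859 genes had a larger one. At constant temperature, the day 9 level of CSF1 was 2.12 times that of day 3, a log2 difference of 1.06, beside 0.37 for TNFRSF11B over the same days. In all, 1.39% of genes were 2-fold higher on day 9 than on day 3. By level, CSF1 stood above 45.9% of the 12859 genes on day 0 and above 93% on day 9. Its FPKM was 4.81, 2.21, 2.77 and 3.57 times that of TNFRSF11B from day 0 to day 9.

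CSF1 is made as secreted and as membrane-bound protein from alternatively spliced transcripts. Of its 8 entries, ENST00000329608 had 6.36, 26.4, 38.0 and 57.9 FPKM from day 0 to day 9, and ENST00000357302 had 3.2, 10.8, 22.1 and 26.9. Together these held 78.1%, 83.1%, 87.2% and 89.7% of the gene's FPKM in the order of the days. The other 6 entries summed to 2.67 FPKM on day 0 and 9.78 on day 9. The transcript ENST00000488198 stood apart, with 1.20, 1.03, 1.22 and 1.20 FPKM. ENST00000420111 had 0.723 FPKM on day 0 and 1.69, 1.80 and 1.87 later, and its share of the gene went from 5.9% to 1.97%. The difference from day 0 thus lay mostly in the same 2 transcripts that were the main ones on day 0.

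**Figure D3:**
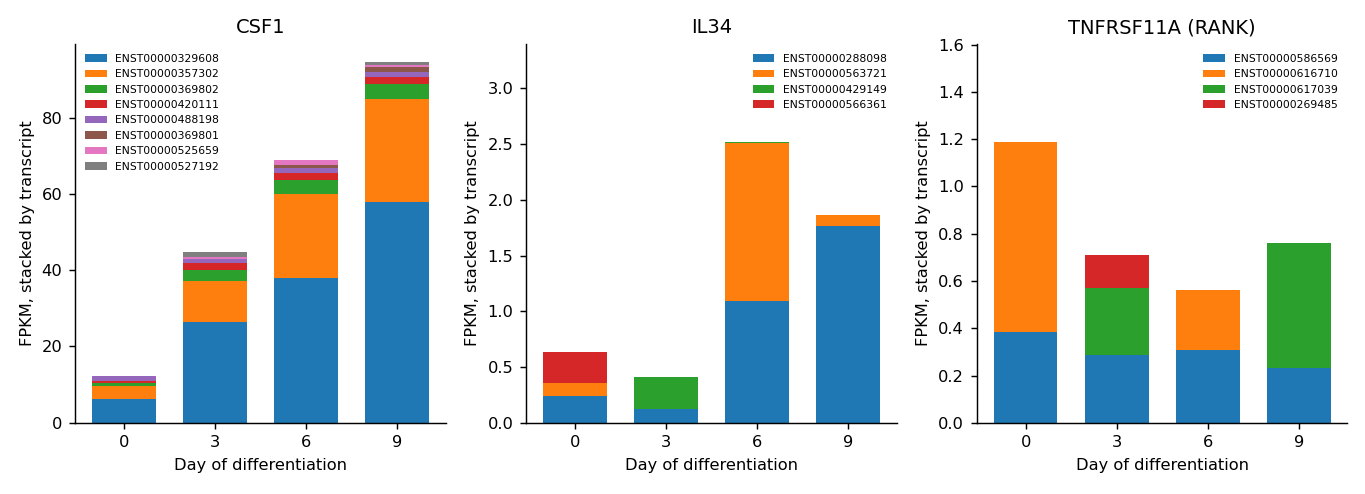
FPKM of each transcript (stacked bars, y axis) of CSF1, IL34 and TNFRSF11A by day (x axis), with 1 library per day. In CSF1, ENST00000329608 and ENST00000357302 made up 78.1% to 89.7% of the bar, whereas in IL34 ENST00000288098 made up 43.2% on day 6 and 95% on day 9, and in TNFRSF11A the main transcript changed between days.

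IL34 (ENSG00000157368), the other ligand of CSF1R, was low in all libraries, with 0.634, 0.41, 2.52 and 1.86 FPKM in the order of the days. Its FPKM was 0.646, 3.97 and 2.93 times the day 0 value. The log2 ratio with 1 added was -0.21, 1.11 and 0.81, past the 2-fold limit on day 6 only, while on day 9 it was past the limit with 0.1 added (1.42) and after rescaling to an equal sum in each library (1.07). Days 6 and 9 were both above days 0 and 3. Between days 3 and 9 the log2 difference with 1 added was 1.02, beside 1.06 for CSF1. The FPKM themselves differed more for IL34, by 4.54 times against 2.12 times for CSF1. ENST00000288098 had 0.237, 0.121, 1.09 and 1.77 FPKM, and ENST00000563721 had 0.116, 0, 1.43 and 0.0928. The first was above day 0 on both days, with 43.2% of the gene on day 6 and 95% on day 9, and the second added to it on day 6. With ENST00000288098 alone, the log2 ratio was 0.76 on day 6 and 1.16 on day 9, so the call moved from day 6 to day 9. CSF1 was 19.3, 109, 27.4 and 50.8 times IL34 from day 0 to day 9.

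In order of level, CSF1 was first and TNFRSF11B second in all 4 libraries, and TNFSF11 was last. IL34 and TNFRSF11A changed places between day 3 and day 6. Spread over replicates is not known, so whether neighbours in this order differ could not be judged, and the values of IL34, TNFRSF11A and TNFSF11 were all at or below 2.52 FPKM.

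**Figure D4:**
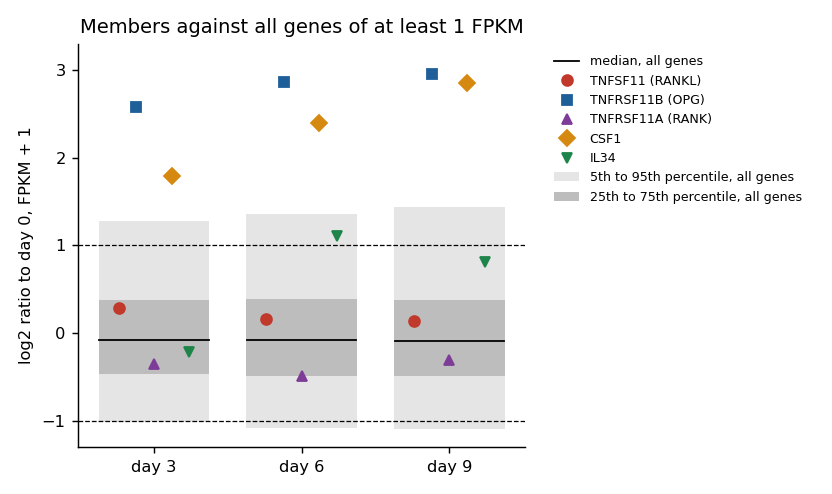
Log2 ratio to day 0 of FPKM with 1 added (y axis) on days 3, 6 and 9 for the 5 genes (symbols) and all 12859 genes of at least 1 FPKM (grey bars, with a line at the median and dashed lines at the 2-fold limits). TNFRSF11B and CSF1 lay above the 95th percentile of all genes on each day, which was 1.28, 1.36 and 1.44, and IL34, TNFRSF11A and TNFSF11 lay between the 5th and 95th percentiles.

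Genes whose differences from day 0 were most like those of the members were found by the Euclidean distance between the 3 log2 ratios, over the 4 libraries. For TNFRSF11B these were HSPA4L, at a distance of 0.11, with log2 ratios of 2.63, 2.83 and 2.87, and ADAMTS1, also at 0.11, with 2.67, 2.86 and 3.02. For CSF1 they were NTN1 (distance 0.15) and PHLDA1 (0.25). For IL34 they were ART3 (0.16) and YAF2 (0.36). Because 1 was added, genes at unlike levels can lie close without the same fold. NTN1 had 0.38 FPKM on day 0 and 8.38 on day 9, where CSF1 had 12.2 and 94.6. ART3 had 0.147 FPKM on day 0 and 1.56 on day 6, where IL34 had 0.634 and 2.52. Around TNFRSF11A, 3642 genes were within 0.5, against 21 around TNFRSF11B, 27 around CSF1 and 10 around IL34, so UBA3 and GLRX2, the closest, say little.

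Next to the ligands and receptors stand proteins that bind or cut them. LGR4, a second receptor for RANKL, had 10.1 FPKM on day 0 and 13.5 to 15.8 later, within the 2-fold limit. OPG also binds TRAIL (TNFSF10), a death ligand, which had 0.362 FPKM on day 0 and 0.76, 1.02 and 1.47 later. A list of 11 genes held such partners and sheddases, and also the TRAIL receptors TNFRSF10A, TNFRSF10B, TNFRSF10C and TNFRSF10D, which are not partners of the members. Of the 11, 10 reached 1 FPKM. Among the 10, 5 were 2-fold higher on all 3 days, beside 5.93% of all genes, and 0 were lower. These 5 were SDC1, MMP14 and the TRAIL receptors TNFRSF10A, TNFRSF10B and TNFRSF10D, so the count is not one of RANKL and OPG partners alone. The median log2 ratio of the 10 was 0.998, 0.941 and 1.11, beside -0.08, -0.08 and -0.09 over all genes. SDC1, the heparan sulfate proteoglycan syndecan-1, had 19.3 FPKM on day 0 and 109, 108 and 100.01 later. The TRAIL receptor TNFRSF10B had 45.3 FPKM on day 0 and 145, 151 and 158 later. TNFRSF10A, which also transmits the TRAIL signal, went from 0.973 FPKM to 6.14, 5.11 and 7.13, and TNFRSF10D, a decoy receptor for TRAIL, from 10.3 to 22.7, 27.1 and 31.5. MMP14, a membrane protease that can shed RANKL, had 60.5 FPKM on day 0 and 134, 160 and 157 later. The sheddases ADAM10 and ADAM17 stayed within the limit, with log2 ratios between 0.09 and 0.24.

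TNFRSF11B stood among other members of its family. In the list of 27 further TNF receptor genes, 20 reached 1 FPKM. On days 3, 6 and 9, 7, 9 and 10 of the 20 were 2-fold higher, beside 8.13%, 9.01% and 9.6% of all genes. On all 3 days 7 were higher, beside 5.93% of all genes. These 7 include TNFRSF10A, TNFRSF10B and TNFRSF10D, which were also counted in the list of partners above, so the 2 counts overlap. TNFRSF13C, a receptor of B cells, was the 1 gene that was 2-fold lower, on day 9. The median log2 ratio of the 20 was 0.67, 0.70 and 1.02. The death receptor FAS had 4.1 FPKM on day 0 and 32.6, 31.6 and 36.0 later, and its log2 ratio on day 9 (2.86) was close to that of TNFRSF11B (2.96). EDA2R, a receptor for ectodysplasin A2, had 2.41 FPKM on day 0 and 24.7, 24.6 and 22.3 later. TNFRSF25 had a log2 ratio of 1.57, 1.61 and 1.57.

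Among the TNF ligands, TNFSF11 was at the low end while others were 2-fold higher on every later day. Of 17 further ligand genes, 10 reached 1 FPKM. Of the 10, 4 were 2-fold higher on all 3 days, beside 5.93% of all genes, and 0 were 2-fold lower on any day. Most of the 10, TNFSF15 and TNFSF4 among them, lay under 1 FPKM on day 0, so they could not be called lower. They reached the minimum only in a later library, which favours higher ratios. The median log2 ratio of the 10 was 0.97, 1.03 and 1.18. TNFSF15 had 0.716 FPKM on day 0 and 14.6, 32.8 and 44.7 later. TNFSF4, the ligand of OX40, had 0.562 FPKM on day 0 and 16.6, 26.6 and 30.4 later. CD70, the ligand of CD27, had 1.60 FPKM on day 0 and 21.0, 32.6 and 37.5 later, and TNFSF9 had 4.77 and then 14.6, 15.1 and 15.2. TNF itself, which promotes osteoclast formation together with RANKL, did not reach 0.1 FPKM in any library.

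**Figure D5:**
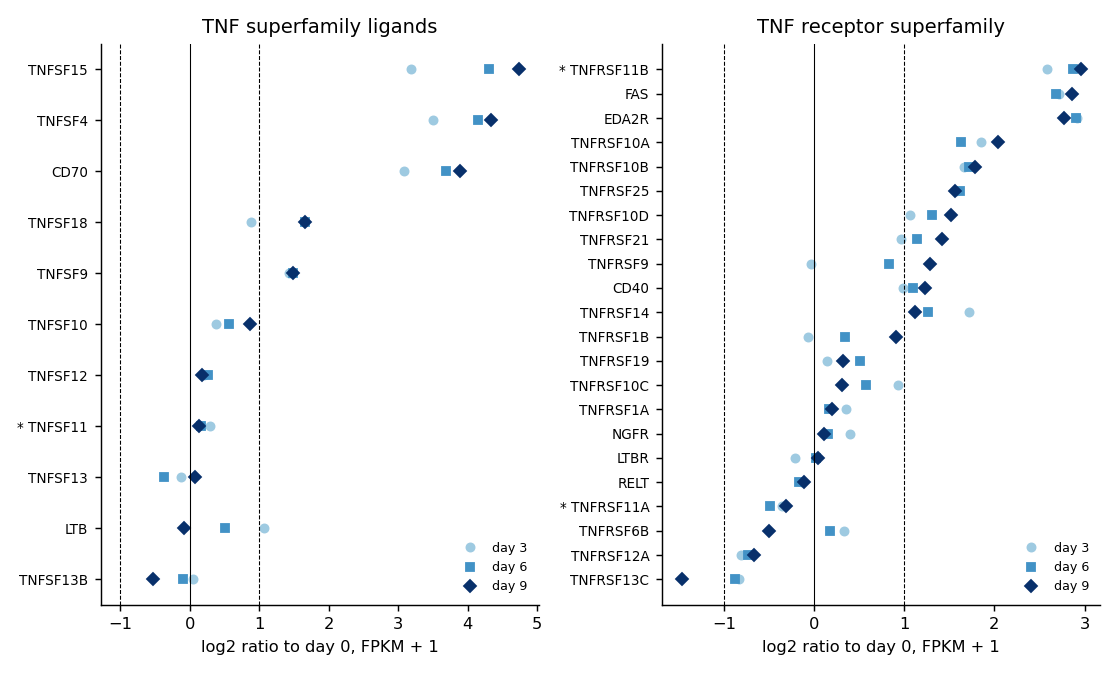
Log2 ratio to day 0 of FPKM with 1 added (x axes) on days 3, 6 and 9 for the TNF ligand genes (left) and TNF receptor genes (right) of at least 1 FPKM, ordered by day 9 (y axes), with members marked by a star and dashed lines at the 2-fold limits. TNFSF11, shown although it did not reach 1 FPKM, lay near 0, and TNFRSF11B had the largest day 9 ratio of the receptor genes shown, at 2.96 against 2.86 for FAS.

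Genes known to regulate RANKL and OPG in osteoblasts were mixed. Of 33 listed, 28 reached 1 FPKM. On days 3, 6 and 9, 7, 7 and 8 of the 28 were 2-fold higher, beside 8.13%, 9.01% and 9.6% of all genes. On all 3 days 7 were higher, beside 5.93% of all genes. IL6R, the receptor of interleukin 6, was 2-fold lower on day 9 (log2 ratio -1.05). The median log2 ratio was 0.36, 0.31 and 0.51. Cytokines that raise RANKL in other osteoblast systems were among the 7. IL1B had 5.41 FPKM on day 0 and 43.9, 127 and 280.4 later. IL6 had 4.81 FPKM on day 0 and 16.7, 52.2 and 148 later, IL1A 1.37 and then 4.68, 19.5 and 44.8, and LIF 10.6 and then 29.3, 31.6 and 46.4. CYP24A1, the enzyme that degrades vitamin D, had a log2 ratio of 1.82, 1.67 and 1.73. RUNX2, the osteoblast transcription factor, had 7.37 FPKM on day 0 and 26.2, 19.3 and 18.2 later.

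The other colony-stimulating factors and their receptors gave CSF1 its setting. CSF1R, the receptor of CSF1 and IL34, had 0.391 FPKM on day 0 and 0.232, 0.197 and 0.179 later. Of the 9 genes of this list, 4 reached 1 FPKM, with 2 higher on all 3 days (CSF2 and KITLG), beside 5.93% of all genes. Among the 4, CSF2 and CSF3 lay under 1 FPKM on day 0. They reached the minimum only in a later library, which favours higher ratios, so this count says little. CSF2, which encodes GM-CSF, had 0.137 FPKM on day 0 and 7.13, 45.6 and 130 later, so that it was below CSF1 on days 0, 3 and 6 and above it on day 9. KITLG, the stem cell factor, had 12.01 FPKM on day 0 and 45.7, 39.2 and 46.3 later.

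Further secreted or surface factors that act on osteoclasts or draw in their precursors were often higher. Of 16 listed, 15 reached 1 FPKM. Among the 15, 7 were 2-fold higher on all 3 days, beside 5.93% of all genes, and 0 were 2-fold lower on any day. The median log2 ratio was 1.01, 1.28 and 1.68. The monocyte chemokine CCL2 had 23.8 FPKM on day 0 and 117, 276 and 313 later. CCL7, a related chemokine, was listed at 0 on day 0 and had 1.17, 3.99 and 6.27 FPKM later. CXCL8 had log2 ratios of 1.29, 4.49 and 6.82 and the complement gene C3 of 2.16, 3.59 and 4.65. SFRP1, a WNT antagonist, had 1.95 FPKM on day 0 and 26.1, 35.5 and 36.3 later. CXCL12 was highest on day 3, with 4.06 FPKM on day 0 and 49.2, 31.8 and 20.4 later.

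The chain that leads from RANK into the nucleus had no gene past the limit on day 3 and a few on days 6 and 9. Of 21 adaptors, kinases and transcription factors of RANK signalling, 20 reached 1 FPKM, and 0, 3 and 3 of these were 2-fold higher on days 3, 6 and 9, with 0 lower, beside 8.13%, 9.01% and 9.6% of all genes higher. The median log2 ratio was 0.01, 0.06 and 0.08. Most of these proteins also serve other receptors. The highest by mean FPKM were JUN, with 51.7 FPKM on day 0 and 104, 108 and 107 later, and RELA, with log2 ratios of -0.37, -0.25 and -0.13. The genes called on days 6 and 9, chosen here after their values were seen, were JUN, NFKB2 and RELB. JUN was just under the limit on day 3 (log2 ratio 0.99), and the day 3 count of 0 depended on the setting. That count was 1 with 0.1 added, 2 after rescaling to an equal sum and 1 after rescaling to the same median. NFATC1, the transcription factor through which RANK forms osteoclasts, also named after its values were seen, had 6.29 FPKM on day 0 and 3.42, 3.43 and 3.26 later.

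The label of the cells was set against marker lists. Of 9 osteoblast markers, 6 reached 1 FPKM. COL1A1, a chain of type I collagen, had 777 FPKM on day 0 and 1974, 1587 and 1146 later, and COL1A2 had log2 ratios of 2.76, 2.58 and 2.15. ALPL, alkaline phosphatase, had 0.294 FPKM on day 0 and 4.32, 4.35 and 4.18 later. SPP1, osteopontin, had 0.794 FPKM on day 0 and 1.89, 5.14 and 7.45 later, 2-fold higher on days 6 and 9. The transcription factor SP7 and the bone matrix genes IBSP and BGLAP did not reach 1 FPKM in any library. Of the 6 osteocyte markers and 6 lymphocyte markers, 0 reached 1 FPKM, and the highest by mean FPKM were PHEX and CD4. Of 4 endothelial markers, TEK alone did, with 9.97 FPKM on day 0 and 14.0, 14.5 and 16.6 later.

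Of the 15 osteoclast and myeloid markers, 6 reached 1 FPKM. The summed FPKM of all 15 went from 30.9 on day 0 to 56.1, 86.6 and 117. Most of the sum was CD68, a lysosomal glycoprotein, with 16.2 FPKM on day 0 and 37.5, 65.1 and 90.6 later. ACP5, the tartrate-resistant acid phosphatase, had 0.766 FPKM on day 0 and 4.11, 3.47 and 5.57 later. OSCAR, the osteoclast-associated receptor, had 0.345 FPKM on day 0 and between 0.926 (day 3) and 1.85 (day 9) later, 2-fold higher on day 9 (log2 ratio 1.08). The rest of the 6 stayed within the 2-fold limit, and CTSK and CD14 were lower on every later day. CTSK had 2.92 FPKM on day 0 and 1.19, 2.34 and 2.1 later, and CD14 had 1.07 and then 0.398, 0.632 and 0.428. ITGB3 had 9.07 FPKM on day 0 and 10.3, 11.7 and 15.0 later. The protease gene MMP9 was listed at 0 on day 0 and had 0.288, 0.618 and 0.394 FPKM later. CALCR, DCSTAMP and ATP6V0D2, which also mark osteoclasts, were listed at 0 in every library, and the 9 markers that did not reach the minimum, with CSF1R and PTPRC among them, were at 0.866 FPKM or below. What part, if any, cells of that lineage had in the values of CSF1 and TNFRSF11B was not tested.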

How the data were processed

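RNA of hFOB1.19 cells was sequenced in 1 library for each of days 0, 3, 6 and 9. According to the methods of the study, rRNA was removed, directional libraries were made, and paired-end reads were aligned with TopHat on a Bowtie index. RNase R, which digests linear RNA, is described for the mRNA libraries, and how it affected these values was not tested. The submitters' processing notes name Bowtie 0.12.2 and mm8, a mouse build, while the transcripts carry human Ensembl identifiers, so no gene positions are given. The authors deposited FPKM per transcript. The program behind them is not given in the sources used here. Their comparison tables with day 0 (fold changes, p-values and q-values), and those of lncRNAs and circRNAs, were not used.

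Columns were matched to samples by the day in the titles. FPKM were summed per symbol, 1 was added, and log2 ratios to day 0 were taken. A minimum of 1 FPKM in any library and a limit of 2-fold were used, and background shares were counted over all 12859 genes at that minimum. With 1 library per time point, no test was made. The members, the 7 pathway lists and the 5 marker lists were chosen with earlier results of these data known. In the pathway lists, 7 genes occur more than once. Named are the members, the up to 6 genes per list called in 1 direction on every later day with the largest day 9 ratio (otherwise the 2 highest), the highest gene of each marker list and the 2 closest genes per member. Other genes, such as those in counts of 5 or fewer, receptors and ligands of the members, sheddases and defining markers at or near 0, were named after their values were seen. The ratio rule was tested on simulated data with large changes in genes well above the minimum, which does not bear on calls of low genes. The alternatives covered the pseudocount (0.1), the scaling, the transcript level, the FPKM minimum and a 4-fold limit. Computations and plots were made in Python 3.11.15 (pandas 2.3.3, numpy 2.4.6, matplotlib 3.10.9).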

Additional observations from a re-analysis of the deposited data

How the results depend on the processing

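No paired analysis was possible because a day never has more than 1 library, and none could be left out for the same reason. TNFRSF11B stayed 2-fold higher on all 3 days under both rescalings, with 0.1 added and with a 4-fold limit, with log2 ratios from 2.58 to 2.94 on day 3 and from 2.96 to 3.33 on day 9. CSF1 ranged from 2.85 to 3.00 on day 9, and its day 3 ratio of 1.79 was within a 4-fold limit, stricter by construction. IL34 depended on the setting. On day 6 its ratio of 1.11 was within the 4-fold limit, and it was 0.76 with the highest transcript only. On day 9 it passed the 2-fold limit at 1.42 with 0.1 added, at 1.07 with FPKM rescaled to an equal sum in each library and at 1.16 with the highest transcript only. The log2 ratio of TNFSF11 to TNFRSF11B was -4.12, -4.53 and -4.65 with 1 added to each FPKM, and -5.98, -6.84 and -7.08 with 0.1 added. With the highest transcript only it was -7.85 on day 3 and -7.72 on day 6, so the day 6 value was then not below that of day 3. No log2 ratio of a called member changed its sign, which another pseudocount or limit could not have brought about.

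Over all genes, rescaling to an equal sum in each library gave 1690 higher genes on day 3 and 1746 on day 6. The share of higher genes among those called was then 77.8% on day 3 and 74.7% on day 6 (60.6% and 58.4% as deposited), and the median log2 ratio moved by 0.20, 0.18 and 0.11. Relative to that median, TNFRSF11B was at 2.80, 3.09 and 3.19 and CSF1 at 1.90, 2.52 and 2.98. A 4-fold limit left 214, 259 and 301 higher genes and 99, 119 and 133 lower genes on the 3 days. Of the 42 counts of list genes higher or lower, 41 stayed within 1.5 times under each rescaling, the other being RANK signalling genes higher on day 3 (0 as deposited, 2 and 1 after rescaling). FPKM without counts limit what can be said of TNFSF11, TNFRSF11A and IL34.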
